A study of Saccharomyces cerevisiae with 32 samples.

Results

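Cells of the budding yeast Saccharomyces cerevisiae held in G1 were compared between a mutant strain, 4P, and its tagged control, WT, before release from the arrest. The members are the 4 arrays labelled 0 min, 2 of 4P and 2 of WT, out of 32 in the series, and they were chosen by strain and time label alone. The question of the comparison is which transcripts already differed between the strains before any cell entered the cycle. The other 28 arrays follow both strains every 15 min to 105 min after release and were used for the estimate of the spread and for comparison of the later times with the arrest.

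WT is strain YBL320, which carries epitope tags on 4 transcription factors (TOS4-3FLAG, HCM1-3HA, YHP1-13MYC and YOX1-3V5). 4P is strain YBL289, called a phosphomutant by the submitters, with the same tags on mutant alleles (tos4-9A-3FLAG, hcm1-15A-3HA, yhp1-13A-13MYC and yox1-9A-3V5). Both were treated with the mating pheromone alpha-factor for 2 hours. On every array the other channel held RNA from strain MW836a in mid-log growth, with untagged HCM1, TOS4, YOX1 and YHP1. A level is therefore given as the log2 ratio of the arrested culture over this reference, and a difference is 4P minus WT on the log2 scale. Each strain is represented by 1 named isolate, its other genotype is not given by the labels, and nothing states that the 2 arrays of a strain came from separate cultures. The p values measure only the spread between replicate arrays of the same strain and time. This spread was taken over the whole series and not from the arrested arrays alone, and it may be technical.

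Alpha-factor binds the receptor Ste2 of MATa cells and, through a MAP kinase cascade, activates Ste12, which switches on mating genes, while Far1 holds the cyclin-dependent kinase inactive so that cells stop in G1. Hcm1 is a forkhead activator of genes of late S phase, Tos4 is a forkhead-associated domain protein made in G1 and S phase, and Yox1 and Yhp1 are homeodomain repressors that act with Mcm1 at early cell cycle box genes. The series title ascribes the regulation of S-phase factors to the kinase Cdk1, which is held inactive during the arrest.

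Replicate 1 of each strain had the arrested RNA in Cy3 and replicate 2 had it in Cy5, so a dye effect cancels in the mean of a strain, but not where an array is left out. In the channel of the arrested sample, 94.8% to 99.0% of the spots on these arrays gave a signal well above background, with a median 25.7 to 30.9 times as bright as background. Across genes the levels correlated at r = 0.835 between the WT arrays and at r = 0.791 between the 4P arrays. WT replicate 2 and 4P replicate 1 shared slide 5 and correlated at r = 0.876, while WT replicate 1 (slide 2) and 4P replicate 2 (slide 4) correlated at r = 0.676. The highest and the lowest correlations were thus both between arrays of different strains, and slide 5 alone held both strains, in opposite dyes. The 2 arrays per strain limit the precision, with a median standard error (SE) of a difference of 0.186.

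Both strains bore the marks of a pheromone arrest. Of 24 pheromone response genes, 20 lay above the reference on all 4 arrays, against 26.1% of all genes with 4 values, and their median level was 2.64 and 2.82 on the WT arrays and 2.70 and 2.65 on the 4P arrays. All 7 a-specific genes, which only cells of the MATa mating type make in quantity, lay above the reference on all 4 arrays. On the other side, 18 of 21 genes of the mitotic CLB2 cluster and all 8 core histone genes lay below it on all 4 arrays, against 27.2% of all genes. RNA came from whole cultures, so fewer cells of a type and less RNA per cell cannot be told apart.

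**Figure D1:**
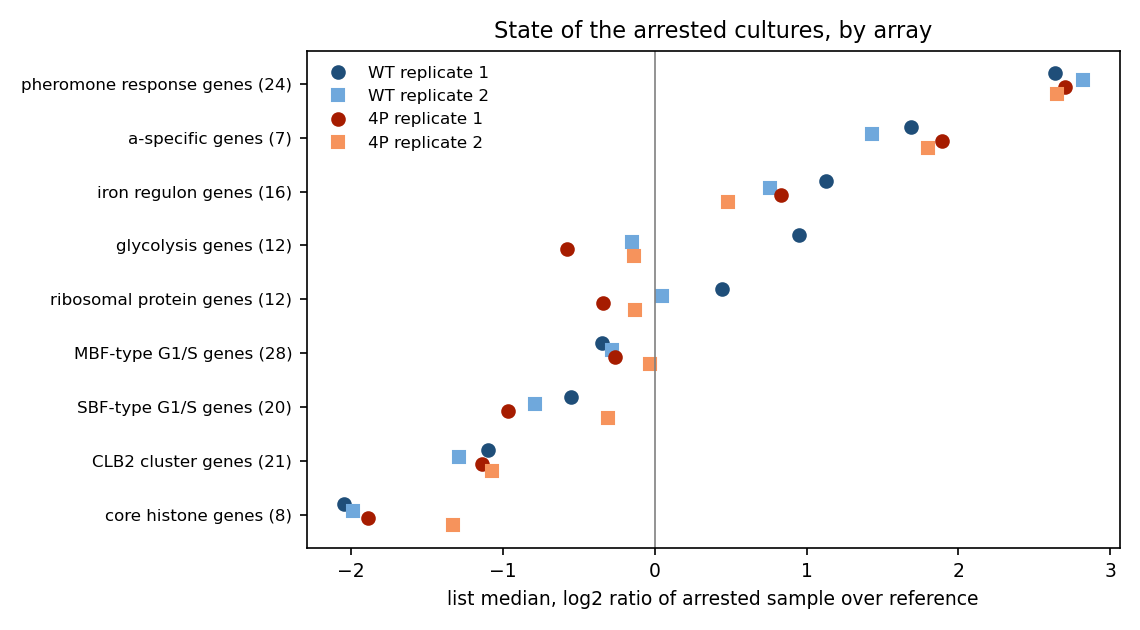
Median log2 ratio of the arrested sample over the asynchronous reference (horizontal axis) for 9 gene lists, with the number of genes tested in parentheses and 1 point per array. Pheromone response genes sit between 2.64 and 2.82 on all 4 arrays, while the glycolysis list is at 0.95 on WT replicate 1 and below 0 on the other 3.

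The single genes show the same picture. FUS1, needed for cell fusion in mating, stood at 3.65 and 3.63 in WT and at 3.66 and 3.42 in 4P. The pheromone-induced membrane protein gene FIG1 stood at 4.33 and 4.55 in WT and at 5.23 and 4.09 in 4P, and PRM1, also a membrane protein gene of cell fusion, at 3.60 and 3.98 against 4.06 and 3.45. For these 3 genes the strains overlapped. KAR4, a transcription factor of the mating response, stood at 3.54 and 3.67 in WT and at 4.21 and 3.65 in 4P, a difference of 0.33 ± 0.20 SE (adjusted p = 0.754, limma). AGA1, the anchor of the a-agglutinin at the cell surface, was at 3.98 and 4.42 against 4.10 and 3.24 and had the largest difference of the list at -0.53 ± 0.25 (adjusted p = 0.634). The median difference over the 24 genes was -0.01, with 12 higher and 12 lower in 4P, and no gene passed the test.

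Genes of the receptor pathway differed by less than their SE in the landmark genes named here. STE2 lay between 1.03 and 1.16 on the 4 arrays and MFA1, which encodes the a-factor pheromone, between 2.32 and 2.86. The alpha-factor protease gene BAR1 differed by 0.04 ± 0.23, the regulator of G protein signalling SST2 by 0.18 ± 0.26 and FAR1 by -0.10 ± 0.23.

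Before the calls are given, the spread sets their frame. Of 6205 genes tested, 7 differed between the arrested strains at an adjusted p under 0.05 in limma with Benjamini-Hochberg adjustment, which is 0.113% of them. Of these, 3 were higher in 4P (0.0483%) and 4 lower (0.0645%). At an unadjusted p under 0.05 there were 473 genes (7.62%), 263 higher and 210 lower. The median size of a difference was 0.147 and 95% of genes were within 0.497. Of 17 genes with a difference above 1 or below -1, 3 passed the test and 14 did not, and in all 17 the arrays of the strains did not overlap. Both 4P arrays lay above both WT arrays in 16% of genes with 4 values and below both in 14.8%, so a gene without overlap is common in this comparison.

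**Figure D2:**
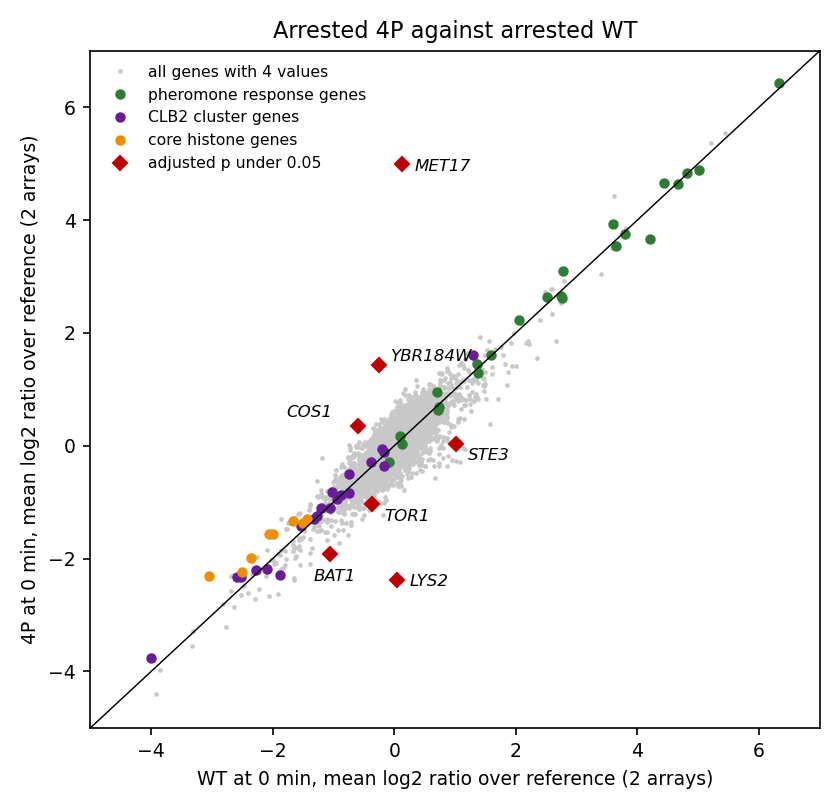
Mean log2 ratio over the reference in arrested WT (horizontal axis) and arrested 4P (vertical axis), 2 arrays each, with 1 point per gene and the line of equal level. Pheromone response genes lie high and CLB2 cluster and histone genes low in both strains, near the line, and the 7 genes with an adjusted p under 0.05 lie off it.

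MET17 differed most. It encodes the enzyme that joins sulfide to O-acetylhomoserine in the synthesis of methionine and cysteine, and mutations in it (the allele name is often met15) mark many laboratory strains. Its level (systematic name YLR303W) was 0.07 and 0.18 on the WT arrays and 5.94 and 4.03 on the 4P arrays. Both 4P arrays were far above both WT arrays, and the difference was 4.86 ± 0.49 (adjusted p = 1.08e-05). On neither WT array was the arrested sample's MET17 signal well above background, whereas it was on both 4P arrays and in the reference on all 4. In the arrested channel alone, on a normalised log2 intensity scale, MET17 averaged 6.74 in WT and 12.37 in 4P, which puts 4P at least 46.8-fold higher in that channel when the WT arrays are set to the dimmest signal that is still above background. The ratio over the reference gave 29.1-fold, so the bound holds for the single channel and not for the ratio, and the size of the fold is not settled. MET17 passed the test in 13 of 15 alternatives, with differences from 3.90 to 5.82, and failed where only the 4 arrays at 0 min were fitted (adjusted p = 0.126, or 0.0704 with a replicate block).

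The other genes of sulfur assimilation did not follow MET17. Of the 21 genes of that list, 16 were lower and 5 higher in 4P (48.2% of all genes were lower), the median difference was -0.13 against 0.01 for all genes, and MET17 was the only one to pass the test. SAM2, an S-adenosylmethionine synthetase gene, differed by -0.53 ± 0.32 (adjusted p = 0.753). MET10, for a subunit of sulfite reductase, stood at 1.21 and 1.13 in WT and 0.83 and 0.60 in 4P. MET3, the ATP sulfurylase gene, stood at 1.03 and 0.72 against 0.68 and 0.30. Neither strain stood apart from the other in MET14, the next enzyme of the pathway, at 0.69 and 0.93 against 0.97 and 0.62. The 3 annotated genes on each side of MET17 differed by -0.26 (ACO1) to 0.46 (HRI1), and none of the 6 passed the test.

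LYS2 differed most in the other direction. It encodes the aminoadipate reductase of lysine synthesis and is also a common marker gene. It (YBR115C) stood at 0.07 and 0.01 in WT and at -1.79 and -2.97 in 4P. The strains did not overlap and both WT arrays were level with the reference, with a difference of -2.42 ± 0.48 (adjusted p = 0.0444) or 5.35-fold lower in 4P. Unlike MET17 in WT, LYS2 was well above background on all 4 arrays in both channels. The call was lost without WT replicate 1 (-2.39, adjusted p = 0.55), without WT replicate 2 (-2.45, adjusted p = 0.326) and without 4P replicate 2 (-1.83, adjusted p = 0.705). The scanner's own log ratio gave -2.28 (adjusted p = 0.248).

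Among the neighbours of LYS2 on the chromosome, TKL2, a transketolase gene next to it in the annotation, stood apart. It was at -0.07 and -0.37 in WT and at 0.47 and 0.48 in 4P, a difference of 0.69 ± 0.19 that did not pass the test (adjusted p = 0.397, unadjusted p = 0.00155). TKL2 was higher in 4P at all 7 later times of the same time courses as well, by 0.37 to 0.76. The other 5 neighbours differed by -0.05 (RAD16) to 0.26 (MUD1). Neighbours were taken from the present assembly by gene order only, and were looked up after the values of LYS2 and MET17 were seen.

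No other marker gene passed the test. LEU2, of leucine synthesis, had its lowest level, 4.77, on 4P replicate 2 and its highest, 6.30, on 4P replicate 1, with WT replicate 1 at 4.88 and WT replicate 2 in between. HIS3, of histidine synthesis, stood at 3.19 and 4.05 in WT and at 4.81 and 4.05 in 4P. Both genes thus lay far above the reference in both strains, with differences of 0.10 ± 0.61 and 0.81 ± 0.68 (adjusted p = 0.979 and 0.835). The reference signal was well above background on all 4 arrays for LEU2 but on 3 for HIS3, so the HIS3 values are less exact. TRP1, of tryptophan synthesis, was at -0.26 and -0.24 against -0.60 and -0.60, a difference of -0.35 ± 0.15 (adjusted p = 0.616). URA3 was not well above background in the arrested sample on any of the 4 arrays and was not tested. ADE2 and CAN1 differed by -0.10 and -0.19, with adjusted p = 0.939 and 0.857.

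**Figure D3:**
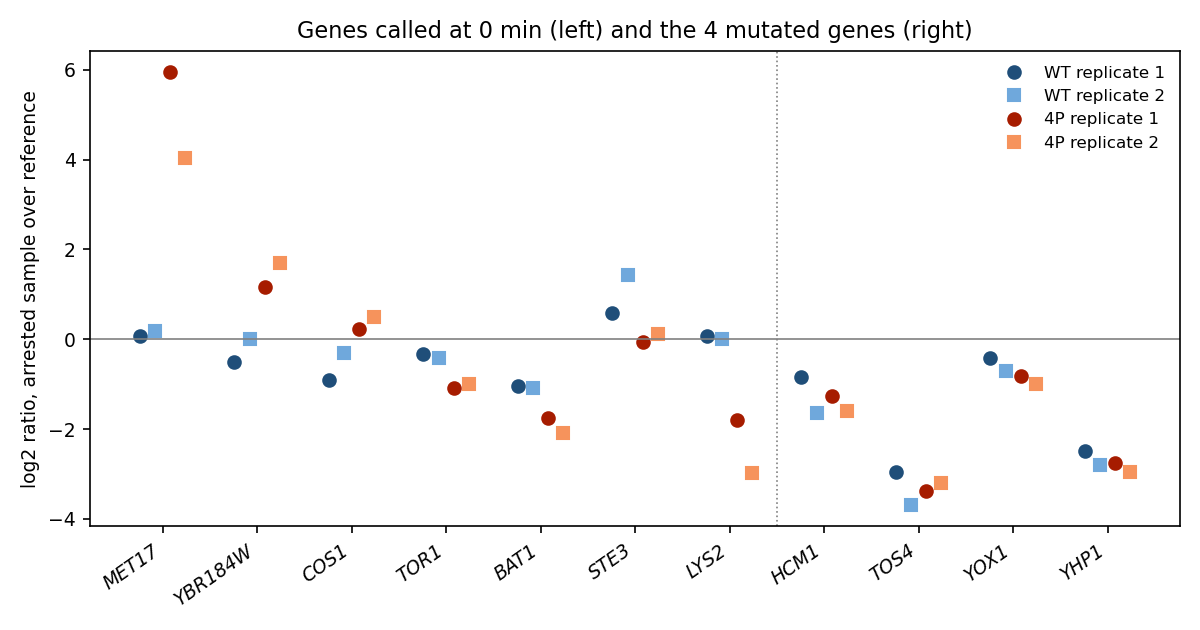
Log2 ratio over the reference on each of the 4 arrays at 0 min for the 7 genes with an adjusted p under 0.05 (left of the dotted line) and for the 4 mutated genes (right), with 1 point per array. The strains do not overlap in the 7 genes, and MET17 reads 0.07 and 0.18 in WT against 5.94 and 4.03 in 4P.

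BAT1 was lower in 4P. It encodes the mitochondrial branched-chain aminotransferase, the last enzyme of leucine, isoleucine and valine synthesis. BAT1 (YHR208W) stood at -1.04 and -1.08 in WT and at -1.76 and -2.09 in 4P. All 4 arrays were below the reference and 4P was lower still, by -0.87 ± 0.16 (adjusted p = 0.0277). The call was lost without WT replicate 1 (-0.85, adjusted p = 0.426), without WT replicate 2 (-0.89, adjusted p = 0.167) and without 4P replicate 2 (-0.70, adjusted p = 0.459).

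Genes that share BAT1's activator Leu3 were then listed, after the values were seen, so they are described with no test. The list holds 9 genes and counts BAT1 itself, although BAT1 had already been called. Of the 9, 8 were lower in 4P and 1 higher, where 48.2% of all genes were lower. The median difference was -0.59, and 6 had an unadjusted p under 0.05, BAT1 among them, against 3.38% of all genes in that direction. LEU1, the isopropylmalate isomerase gene, stood at -1.71 and -1.58 in WT and at -2.29 and -2.40 in 4P (-0.70 ± 0.21, adjusted p = 0.492, and adjusted p = 0.0355 with slide as a block). OAC1, a mitochondrial carrier gene, stood at -0.79 and -1.18 against -1.65 and -1.53. BAP2, a permease gene for branched-chain amino acids, stood at -0.36 and -0.25 against -1.08 and -0.90. In each of these 3 genes both 4P arrays were below both WT arrays. LEU4, for the first committed step of leucine synthesis, and GDH1, glutamate dehydrogenase, each differed by -0.59 (adjusted p = 0.616 for both). ILV2 and ILV5, early enzymes of the branched-chain pathway, differed by -0.24 and -0.09, and LEU2 was the gene that was higher. Without any 1 of the 4 arrays the median stayed between -0.67 and -0.44.

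Lysine synthesis genes other than LYS2 also lay on the lower side, again in a list made after the values were seen. The list holds 8 genes and counts LYS2 itself, although LYS2 had already been called. All 8 were lower in 4P, with a median difference of -0.59, where 48.2% of all genes were lower. LYS2, LYS4 and LYS1 had an unadjusted p under 0.05, against 3.38% of all genes in that direction. LYS4, homoaconitase, stood at 0.24 and -0.12 in WT and at -0.32 and -1.12 in 4P. LYS1, for the last step of the pathway, stood at 1.09 and 0.88 against 0.94 and -0.23. In LYS1, 4P replicate 1 lay between the WT arrays and 4P replicate 2 below them, so the difference was -0.05 without 4P replicate 2 (adjusted p = 0.997) and -1.22 without 4P replicate 1 (adjusted p = 0.0354). LYS20 and LYS21, the homocitrate synthases of the first step, differed by -0.75 ± 0.37 and -0.23 ± 0.19. LYS14, which encodes the activator of the pathway, differed by -0.02 ± 0.14.

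In the broader list of 29 amino acid genes controlled by Gcn4, which holds some of the same genes, 22 were lower and 7 higher. Of all genes, 48.2% were lower, and the median difference of the list was -0.19. Apart from BAT1 none passed the test. An unadjusted p under 0.05 was reached by 6, all lower, against 3.38% of all genes in that direction. BAT1, LEU4 and LYS1, already counted above, were among the 6. Without 4P replicate 2 the median of the list was -0.05, and without WT replicate 2 it was -0.33.

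STE3 was lower in 4P. It encodes the a-factor receptor, a protein of MATalpha cells. STE3 (YKL178C) stood at 0.58 and 1.43 in WT and at -0.05 and 0.13 in 4P. The WT arrays lay above the reference and the 4P arrays at its level, a difference of -0.97 ± 0.19 (adjusted p = 0.0436), with a signal well above background on all 4 arrays. Without WT replicate 2 it was -0.54 (adjusted p = 0.326), without 4P replicate 1 -0.88 (adjusted p = 0.0805) and without 4P replicate 2 -1.06 (adjusted p = 0.15).

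The other alpha-specific genes give a mixed account. SAG1, the alpha-agglutinin gene, stood at 0.76 and 0.83 in WT and at 0.00 and 0.30 in 4P, a difference of -0.64 ± 0.18 (adjusted p = 0.397, and adjusted p = 0.0116 with slide as a block, at -0.81). MF(ALPHA)1, the main alpha-factor gene, was not well above background on any of the 4 arrays in the arrested sample. MF(ALPHA)2 lay above the reference in both strains, at 0.45 and 1.07 against 0.72 and 1.01. Unlike MF(ALPHA)1, the genes STE3, SAG1 and MF(ALPHA)2 gave a signal well above background in the arrested sample on all 4 arrays. Whether cells of another mating type contributed was not tested.

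TOR1 was lower in 4P by the smallest difference among the 7. It encodes a kinase that couples growth to nutrients. TOR1 (YJR066W) stood at -0.32 and -0.42 in WT and at -1.08 and -0.99 in 4P. Replicates lay within 0.1 of each other in both strains and the difference was -0.66 ± 0.12 (adjusted p = 0.0277). Its difference lay between -0.62 and -0.71 without any 1 of the 4 arrays, yet the call was lost in each case (adjusted p = 0.55 without WT replicate 1, 0.114 without WT replicate 2, 0.0576 without 4P replicate 1 and 0.131 without 4P replicate 2).

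COS1 and YBR184W were the other genes that were higher in 4P. COS1 belongs to a family of near-identical subtelomeric genes, so its signal may hold that of other members. COS1 (YNL336W) stood at -0.90 and -0.32 in WT and at 0.22 and 0.49 in 4P (0.96 ± 0.19, adjusted p = 0.044). YBR184W, an uncharacterised reading frame, stood at -0.51 and 0.00 in WT and at 1.15 and 1.70 in 4P (1.69 ± 0.31, adjusted p = 0.0277), or 3.22-fold higher. Both genes crossed the reference level between the strains. Both calls were lost without WT replicate 1 (0.67 for COS1 and 1.43 for YBR184W, adjusted p = 0.979 and 0.55) and without 4P replicate 2 (0.83 and 1.41, adjusted p = 0.46 and 0.459).

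Slide could be compared in part. On slide 5, 4P replicate 1 minus WT replicate 2 was 5.76 for MET17, -1.80 for LYS2, 1.16 for YBR184W and -0.68 for BAT1. It was -0.66 for TOR1, -1.48 for STE3 and 0.54 for COS1. The strains do not overlap in these 7 genes, so the direction was fixed beforehand and only the sizes are informative. The slide 5 values hold the dye effect, since the 2 arrays had opposite dyes. With slide as a block in the fit of all 32 arrays, BAT1 (-0.87, adjusted p = 0.222) and COS1 (0.78, adjusted p = 0.183) no longer passed and the other 5 did. With the scanner's log ratio, or with median centring in place of loess, MET17 alone passed.

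Genes next in rank by p came close in size without passing the test. Among those lower in 4P, NCA3, a cell wall protein gene of the SUN family, stood at 0.89 and 0.88 in WT and at 0.13 and -0.50 in 4P (-1.06 ± 0.23, adjusted p = 0.109). ERG1, squalene epoxidase, stood at -0.40 and -0.29 in WT and differed by -0.67 ± 0.16 in 4P (adjusted p = 0.232). PMA2, a plasma membrane proton pump gene, was at -0.65 and -0.40 against -1.26 and -1.35. In these 3 genes all 4P values were below all WT values. MNR2, a vacuolar magnesium transporter gene, YHR078W and YJL211C differed by -0.58 to -0.66 with adjusted p = 0.151 to 0.213.

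Among those higher in 4P, ACM1, an inhibitor of the anaphase-promoting complex activator Cdh1, stood at -1.17 and -1.21 in WT and at -0.63 and 0.21 in 4P (0.98 ± 0.21, adjusted p = 0.109). YKE2, a prefoldin subunit gene, stood at -0.04 and 0.40 against 0.74 and 1.27. MED6, a Mediator subunit gene, was at -0.59 and -0.86 against -0.05 and 0.02 (0.71 ± 0.18, adjusted p = 0.24, and 0.0385 with slide as a block). In each of these 3 genes, too, the strains did not overlap. RAD6, a ubiquitin-conjugating enzyme gene, the ribosomal protein gene RPL13B, the coatomer subunit gene RET3 and FMP16 differed by 0.48 to 0.86, with adjusted p from 0.232 to 0.395. The size of 4 of these differences turned on which 4P array was kept. Without 4P replicate 1, ACM1 (1.40), YKE2 (1.09), RPL13B (1.27) and NCA3 (-1.38) passed the test. Without 4P replicate 2 they stood at 0.56, 0.57, 0.45 and -0.75, with adjusted p from 0.863 to 0.997.

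None of the mutated genes passed the test in the arrest. HCM1 stood at -0.85 and -1.63 in WT and at -1.26 and -1.59 in 4P (-0.19 ± 0.40, adjusted p = 0.938). TOS4 stood at -2.95 and -3.69 against -3.37 and -3.20 (0.04 ± 0.37, adjusted p = 0.99). YOX1 was at -0.41 and -0.70 against -0.83 and -0.99 (-0.35 ± 0.40, adjusted p = 0.877). YHP1 was at -2.49 and -2.79 against -2.75 and -2.96 (-0.22 ± 0.16, adjusted p = 0.811). All 4 genes lay below the asynchronous, untagged reference on every array, TOS4 and YHP1 the furthest, and only YOX1 had no overlap between the strains. The loci carry tags in both strains, and where the probes lie within the genes was not analysed here.

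No gene of the lists of Hcm1 targets or early cell cycle box genes passed the test. Of 10 Hcm1 target genes, 7 were higher and 3 lower in 4P, where 51.8% of all genes were higher, with a median difference of 0.09. The microtubule regulator gene STU2 stood at -1.06 and -0.97 in WT and at -0.68 and -0.60 in 4P (0.38 ± 0.17, adjusted p = 0.62), and the kinesin gene CIN8 at -0.90 and -0.90 against -0.56 and -0.55 (0.35 ± 0.17, adjusted p = 0.664). Both were named for having the 2 largest differences of the list, and both had 4P above WT without overlap. In all, 3 of the 10 genes were higher without overlap, against 16% of all genes with 4 values. FKH2 and NDD1, transcription factor genes of mitosis, each differed by -0.14. Of 12 early cell cycle box genes, the class that Yox1 and Yhp1 repress, 4 were higher and 8 lower, with a median of -0.11. Of all genes, 48.2% were lower. MCM3, a subunit of the replicative helicase, differed by -0.59 ± 0.30 (adjusted p = 0.664), SPO12, of mitotic exit, by 0.32 ± 0.22, CLN3 by -0.22 ± 0.17 and SWI4 by 0.05 ± 0.15.

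The G1 cyclin genes CLN1 and CLN2 and the SBF target HO lay below the reference in both strains. CLN1 stood at -1.77 and -1.62 in WT and at -1.70 and -1.06 in 4P, CLN2 at -0.48 and -0.42 against -0.78 and -0.48, and the endonuclease gene HO at -1.87 and -1.95 against -2.07 and -1.77. The strains overlapped in CLN1 and HO, while in CLN2 both 4P arrays lay just below both WT arrays. The 20 SBF-type genes had a median difference of -0.01. GIC2, a Cdc42 effector gene, differed by 0.61 ± 0.46 and SRL1, a cell wall mannoprotein gene, by -0.60 ± 0.30 (adjusted p = 0.811 and 0.664). The Cdk inhibitor gene SIC1 and the cyclin gene CLB2 differed by 0.05 ± 0.18 and 0.02 ± 0.22.

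MBF-type genes, which encode much of the replication machinery, lay slightly higher in 4P. Of 28, 23 were higher and 5 lower, where 51.8% of all genes were higher, with a median difference of 0.15. No gene passed the test, and 4 had an unadjusted p under 0.05, against 4.24% of all genes in that direction. CLB6, an S-phase cyclin, stood at -0.93 and -0.23 in WT and at -0.61 and 0.73 in 4P (0.64 ± 0.32, adjusted p = 0.664). MCD1, a cohesin subunit, stood at -2.08 and -1.65 against -1.70 and -0.91. In both genes 4P replicate 2 was the highest array and 4P replicate 1 overlapped with WT. CLB5, the partner cyclin of CLB6, differed by -0.19 ± 0.12. Without 4P replicate 2 the median of the list was 0.04.

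Core histone genes rested on the same array. All 8 were higher in 4P, with a median difference of 0.35, and none passed the test. Their median level was -2.05 and -1.99 on the WT arrays, -1.89 on 4P replicate 1 and -1.33 on 4P replicate 2. HTA2, for histone H2A, stood at -3.31 and -2.78 in WT and at -2.86 and -1.76 in 4P (0.74 ± 0.37, adjusted p = 0.664). HHT1, for histone H3, was the single member without overlap, at -2.13 and -1.98 against -1.53 and -1.58 (0.50 ± 0.21, adjusted p = 0.616). Without 4P replicate 2 the list's median was -0.07, and without 4P replicate 1 it was 0.70.

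Lists of highly expressed genes turned on WT replicate 1. Of 12 glycolysis genes 11 were lower in 4P, with a median difference of -0.74, and none passed the test. Their median level was 0.95 on WT replicate 1, -0.15 on WT replicate 2, -0.58 on 4P replicate 1 and -0.14 on 4P replicate 2. FBA1, aldolase, stood at 1.35 and 0.37 in WT against -0.57 and -0.14 in 4P (-1.22 ± 0.57, adjusted p = 0.634). Without WT replicate 1 the median was -0.21. On WT replicate 1 the reference channel was saturated at 8 of the 12 probes and the arrested channel at 2, while on 4P replicate 2 both channels were saturated at 8 and on the slide 5 arrays at 0, and the part of saturation in the difference was not tested. With the deposited table the median was also -0.21, while it was -0.80 with the scanner's log ratio and -1.20 with median centring.

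Ribosomal protein and iron genes also had their highest list medians on WT replicate 1. Of 12 ribosomal protein genes 8 were lower, with a median of -0.18, which was -0.01 without WT replicate 1. RPS2 stood at 1.34 and 0.54 in WT and -0.37 and -0.14 in 4P (-1.20 ± 0.54, adjusted p = 0.62). The median of the list turned to 0.18 with the deposited table, while it was -0.28 with the scanner's log ratio and -0.67 with median centring. At the 12 ribosomal protein probes, saturation touched 8 in the reference channel and 1 in the arrested channel on WT replicate 1, 6 and 7 on 4P replicate 2, and 0 on the slide 5 arrays, so these levels are inexact. Of 16 iron regulon genes 14 were lower, with a median of -0.36, which was -0.07 without WT replicate 1 and -0.42 with the deposited table. ARN2, a siderophore transporter gene, stood at 2.54 and 1.20 against 1.80 and 0.81, and FIT2, a cell wall mannoprotein gene of iron uptake, at 1.84 and 0.90 against 0.84 and 0.80. No gene of either list passed the test, and 12 of the iron genes were above the reference on all 4 arrays.

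**Figure D4:**
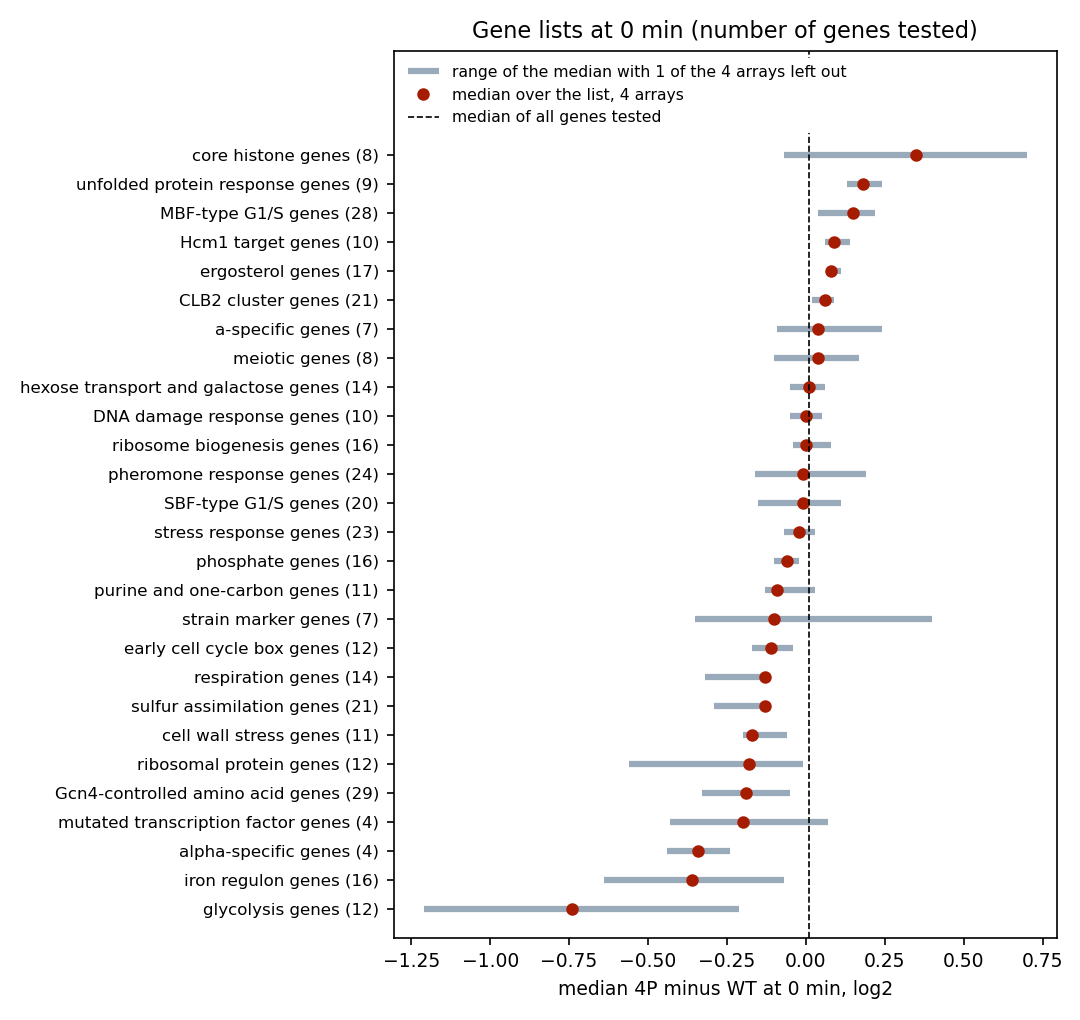
Median difference, 4P minus WT at 0 min, of each gene list (points; log2 scale on the horizontal axis, number of genes tested in parentheses), with the range of that median when 1 of the 4 arrays is left out (bars) and the median of all genes (dashed line). Glycolysis genes lie lowest at -0.74 and histone genes highest at 0.35, and both have long bars.

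No gene of the ergosterol, stress response and cell wall stress lists passed the test. Among 17 ergosterol genes 4 were higher and 1 lower at an unadjusted p under 0.05, against 4.24% and 3.38% of all genes. The lower one was ERG1, given above, and ERG3, a sterol desaturase gene, was at -0.43 and 0.03 in WT against 0.30 and 0.60 in 4P (0.65 ± 0.23, adjusted p = 0.552). ERG20, farnesyl diphosphate synthase, was at -0.53 and -0.14 against 0.12 and 0.30. Among 23 stress response genes, with a median of -0.02, HSP12 and HSP26, small heat shock protein genes, differed by 0.52 ± 0.17 and 0.64 ± 0.23 (adjusted p = 0.537 and 0.571). GSC2, a glucan synthase gene of the cell wall stress list, stood at 2.71 and 2.61 in WT and at 2.13 and 1.59 in 4P (-0.80 ± 0.28, adjusted p = 0.552). In GSC2 both strains were above the reference and 4P was lower on both arrays. SED1, a cell wall protein gene, stood at 0.23 and -0.62 against -1.36 and -1.11.

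Unfolded protein response genes had a median difference of 0.18 (7 of 9 higher), with LHS1, a chaperone of the endoplasmic reticulum, at 0.34 ± 0.18 and EUG1, a protein disulfide isomerase, at 0.33 ± 0.17. Respiration genes had a median of -0.13, with SDH1 of succinate dehydrogenase at -0.64 ± 0.30 and the cytochrome c gene CYC7 at 0.50 ± 0.33. Purine and one-carbon genes had a median of -0.09, with SHM2, a serine hydroxymethyltransferase, at -0.85 ± 0.36 and ADE6 at -0.47 ± 0.22. Phosphate genes (-0.06), hexose transport and galactose genes (0.01), DNA damage response genes (0.00), ribosome biogenesis genes (0.00) and meiotic genes (0.04) differed by less. None of the genes of these 8 lists passed the test.

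The differences of the arrest were largely seen at the later times too. Those arrays follow the same strains and time courses, so they are repeated measurements and not independent support. At 15 to 105 min MET17 differed by 3.75 to 4.86 and passed the test at all 7 times, where 0.0322% to 4.98% of all genes were called. Its signal was well above background on 11 of the 16 WT arrays of the series, so not all of these sizes are exact. LYS2 differed by -2.67 to -2.01 and passed at 4 of the 7 times. BAT1 (-0.92 to -0.48) passed at 3, TOR1 (-0.65 to -0.08) and COS1 (0.36 to 1.04) at 2 each, and STE3 (-0.89 to -0.53) at none. These 6 genes kept their direction at all 7 later times. YBR184W did so at 5 of 7, with differences from 1.23 down to -0.13, and passed at none.

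A direct test asked whether the difference at 0 min departed from its mean over the 7 later times. No gene passed in limma (0 of 6205, with 82 genes or 1.32% at an unadjusted p under 0.05). YBR184W departed by 1.12 ± 0.33 and TOR1 by -0.29 ± 0.13 (unadjusted p = 0.00253 and 0.0329, adjusted p = 0.999 for both), and LYS2 departed by -0.12 ± 0.51. MET17 was at background in WT at 0 min, so the test says nothing of it. No strain difference was thus shown to be particular to the arrest. Between 2 and 309 genes differed at the later times, most at 75 min.

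**Figure D5:**
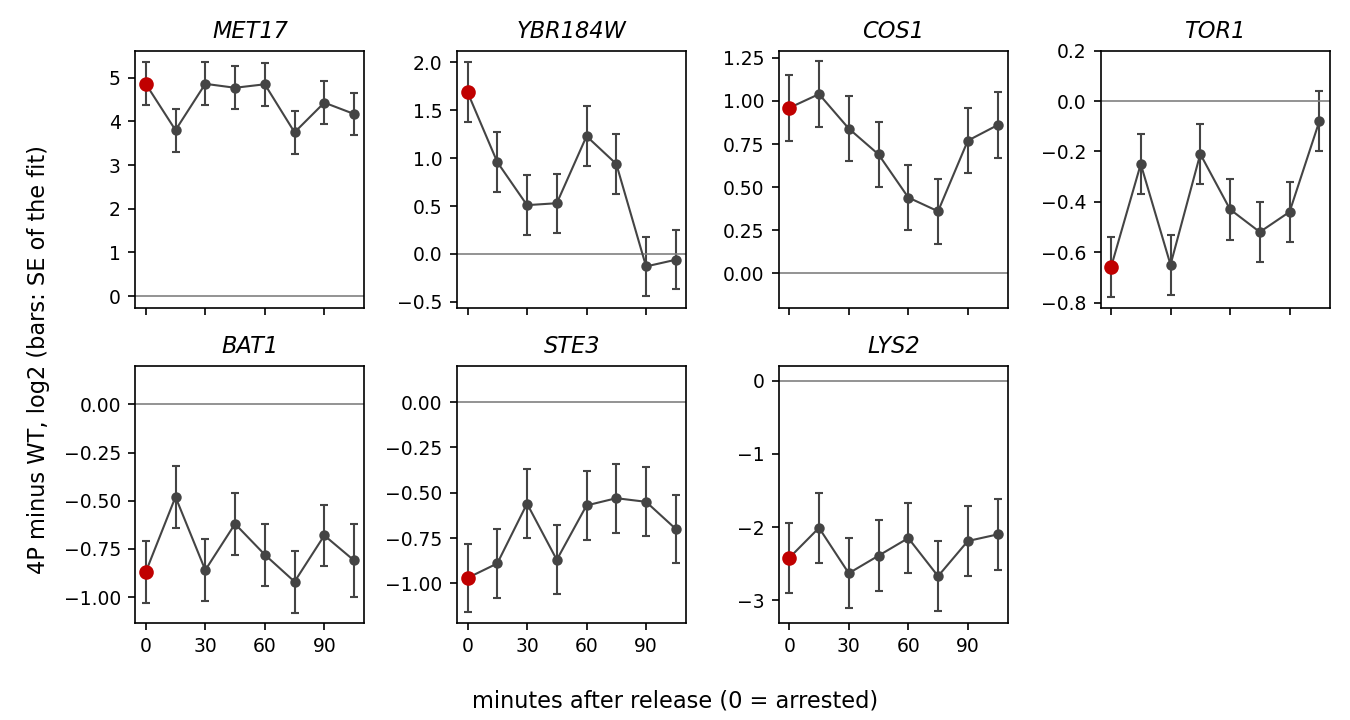
Difference, 4P minus WT (log2, vertical axes of different range), of the 7 genes with an adjusted p under 0.05 at 0 min (first point, red) at the 8 times after release (horizontal axis, min), with the SE of the fit as bars. MET17 stays between 3.75 and 4.86 and LYS2 between -2.67 and -2.01 at the later times, while YBR184W falls to -0.13.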

How the data were processed

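The submitters' processing notes name Agilent Feature Extraction 10.7.1.1 for the scans. The deposited scanner files hold median intensity and background intensity per channel and a log10 ratio of Cy5 over Cy3, per the file headers. The deposited series table holds log2 ratios, and its values followed the scanner's ratio, synchronised sample over reference (r = 0.997 to 0.998 at 0 min). Sources used here do not state its normalisation. A mean signal had been planned, and the median signal was used. Background was corrected with normexp (offset 50) and ratios were normalised by loess within each array, in limma 3.58.1 (R 4.3.3). Outlier-marked spots were dropped, and the spots of a probe and the probes of a gene averaged (29 genes with several probes). Probes well above background in at least 1 whole group were kept (6236 probes, 6205 genes, 30 of them lacking a value on 1 of the 4 arrays). Two-sided limma tests used the means of 16 groups over all 32 arrays, so the spread came from every group, with Benjamini-Hochberg adjustment over all genes. The model was run on simulated data with independent errors, no slide or dye effect and planted differences larger than those of most called genes. That run does not check calls of smaller differences. Genes named were those called, the 10 smallest p values per direction, the mutated genes, the 2 largest differences in each of 28 lists (1 of which is not reported here) and a set of landmark genes. The comparison, lists and rule were chosen with earlier results of these data known. Leu3 and lysine genes, chromosome neighbours, MET3, MET10, MET14, ERG20, FKH2, NDD1, the alpha-factor genes and the marker genes HIS3, TRP1, ADE2, CAN1 and URA3 were added after the values were seen. Gene names came from the array files and a RefSeq table of assembly R64.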

Additional observations from a re-analysis of the deposited data

How the results depend on the processing

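The count of 7 genes (3 higher, 4 lower) was 14 (5 and 9) with slide as a block, sharing 5 genes, and 15 (5 and 10) with slide as a random block (correlation 0.27), sharing all 7. It was 0 in both directions with only the 4 arrays at 0 min (209 genes at an unadjusted p under 0.05), 1 (1 and 0) with the scanner's log ratio, 1 (1 and 0) with median centring and 0 (0 and 0) with the deposited table (376 at an unadjusted p under 0.05), which lacked MET17. It was 7 with no background subtraction, with no filter on dim probes and with Aquantile, which leaves ratios as they are by construction. The stricter filter gave 6, since MET17 is dim in WT. Leaving out 1 array gave 2 to 28 genes (1 to 20 higher, 0 to 8 lower), with 28 without 4P replicate 1 and 2 without 4P replicate 2. Such fits lose the dye balance, and the lone array is assumed to vary like the other groups. The departure test gave 0 genes throughout except 1 with slide and replicate block together.

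Replicate number is also dye orientation. Same-numbered arrays of the strains deviated together at r = 0.326 at 0 min. At the later times r was 0.05 at 45 min and 0.126 to 0.372 at the others. Since r was not above 0.1 at every time, failing at 45 min alone, the numbers were not taken to pair the samples. A shared deviation by replicate or dye is thus not excluded. A replicate block gave 8 genes, all 7 among them, and 5 with slide and replicate block together (2 shared). With only the 4 arrays and a replicate block, an alternative chosen after seeing the data, it was 0 (0 higher, 0 lower), with 511 genes at an unadjusted p under 0.05. No called gene changed direction under any alternative. In the fits that left out 1 array, the lack of overlap between the strains fixed this beforehand. Of the uncalled genes named by rule, with the Leu3 and lysine genes and the neighbours, 32 changed sign under at least 1 and 75 under none. On 4P replicate 1 the loess ratios correlated with the deposited table at r = 0.896, against 0.984 to 0.992 on the other 3 arrays, and the cause was not tested.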
